A study of Mus musculus with 24 samples.

Results

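Organoids grown from mouse small intestine were compared after 24 h and after 6 h of treatment with dFz7-21, a peptide that the series describes as a blocker of the Wnt receptor Frizzled 7. The comparison takes every library whose title names dFz7-21, 4 at 24 h and 4 at 6 h, and these are 8 of the 24 libraries in the series. The others are 4 libraries each at 6 h and at 24 h with DMSO, a solvent, and with Fz7-21S, about which the labels say nothing beyond its name. All of them are primary cultures sequenced from polyadenylated RNA. The labels give no dose, medium, mouse strain or age. They name neither cultures nor animals behind the replicates, so a p-value here reflects only sample-to-sample spread, part or all of which may be technical. The 6 h and 24 h libraries were by design taken at different times, so hours of treatment cannot be told apart from hours since the culture was last handled or from the hour of the day.

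Intestinal organoids keep the order of the crypt and villus. Stem cells marked by Lgr5 sit among Paneth cells, divide, and give rise to absorptive enterocytes and to secretory goblet, Paneth, enteroendocrine and tuft cells. Wnt ligands bind Frizzled receptors together with Lrp5 or Lrp6, which stabilises beta-catenin, and beta-catenin with TCF and LEF factors switches on targets such as Axin2, Lgr5 and Sp5. Rnf43 and Znrf3, themselves Wnt targets, remove Frizzled from the cell surface.

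Total counts ran from 25.3 M to 27.4 M in the 6 h libraries and from 21.6 M to 25.2 M in the 24 h libraries, so every 24 h library was shallower than every 6 h library. Markers shared by all epithelial cells were abundant at both times but fell without overlap. The keratin Krt8 went from between 2704 and 2828 CPM (TMM-scaled CPM, library-size-adjusted counts) to between 1557 and 1720 CPM, a log2 fold change of -0.77. The adhesion molecules Epcam and Cdh1 changed by -0.56 and -0.86. With DMSO these 3 genes changed by -0.96, -0.51 and -0.57. The part of this general decline, and of depth, in the lineage results was not tested. Cdh5, a marker of endothelium, was at 0 in all 8 and the leukocyte marker Ptprc at 0.221 CPM or less. The 24 h library of replicate 3 stood apart. Its summed level of 26 mesenchymal markers was 1958 CPM against 13.9 to 20.8 CPM in the other 7, with Col1a1 at 395 CPM and no more than 0.289 CPM elsewhere, and its mean correlation with its group was 0.971 against 0.985 for the next lowest. Among the libraries of the other treatments, 2 DMSO libraries at 6 h also held mesenchymal markers, at 409 and 419 CPM. Results that rest on these libraries are given with and without them.

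Most expressed genes changed with time under dFz7-21. Of 15429 genes tested with edgeR's quasi-likelihood test at a Benjamini-Hochberg adjusted p below 0.05, 9243 (59.9%) were called, 4603 (29.8%) higher and 4640 (30.1%) lower at 24 h. Their median absolute log2 fold change was 0.58. A change of at least 2-fold was called upward for 1266 genes (8.21%) and downward for 1042 (6.75%). The 4 libraries at 24 h did not overlap with the 4 at 6 h for 60.7% of genes. Without replicate 3 at 24 h, 56.8% of 15577 genes were called, and 8389 of the 9243 calls (90.8%) were made again in the same direction and 2 in the opposite one. In what follows a log2 fold change is 24 h against 6 h with dFz7-21 unless another treatment is named, with its standard error after ±, and a gene is said to rise or fall only where it passed that test.

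Time acted in the other treatments too. With DMSO 8058 genes (52.2%) were called between 6 and 24 h, and with Fz7-21S 9118 (59.1%). These comparisons share no library with the one under dFz7-21. Of the dFz7-21 calls 70.3% were also made in the same direction with DMSO, which is 80.7% of the DMSO calls, and 164 genes were called in opposite directions. Against Fz7-21S the shares were 76.0% and 77.1%, with 141 opposite. The time change itself was then compared between treatments as an interaction in the same fit: it differed from that in DMSO for 2029 genes (13.2%; 1137 above and 892 below) and from that in Fz7-21S for 1687 genes (10.9%; 900 above and 787 below). These interactions use the same dFz7-21 libraries, so they are not independent of each other. The second count was 2878 without replicate 4 of Fz7-21S at 24 h. That library stood apart, with a mean correlation with its group of 0.974 against 0.986 for the next lowest of the group.

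**Figure D1:**
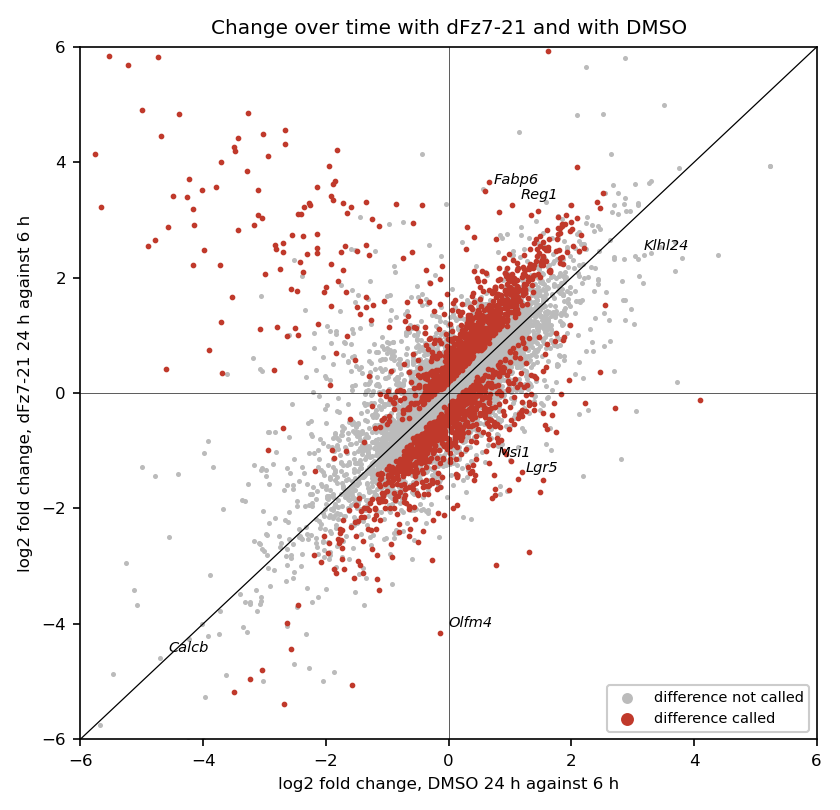
Each point is 1 gene, placed by its log2 fold change from 6 to 24 h with DMSO (horizontal) and with dFz7-21 (vertical), and red points are the 2029 genes whose time change differed between the treatments. Olfm4 lies near 0 with DMSO and at -4.17 with dFz7-21, Lgr5 and Msi1 rise on one axis and fall on the other, and 14 genes lie outside the axes of 6 log2 units.

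The largest changes were named by a fixed rule. Among called genes with a mean of at least 2 log2 CPM, no overlap between the times and the same call without replicate 3, the 15 strongest rises were Nid1, Fabp6, Bco2, Slc6a20a, Slc13a2os, Reg1, Dmbt1, Reg3b, Ces1g, Slco2b1, Slc13a2, Slc25a45, Slc26a3, Rdh7 and Tmem86a, from 3.92 down to 2.93 log2 units. Slc6a20a, Slc13a2 and Slc26a3 are transporters for imino acids, dicarboxylates and chloride, and Bco2 and Rdh7 act on carotenoids and retinol. Slc13a2os is transcribed opposite to Slc13a2, and since strand counting is not given, reads of the pair cannot be told apart. The 15 strongest falls included Aldh1a3, Lama3, Krt6a, Calcb, Prnd, Rrad, Olfm4, Prn, Fosl1, Tead4, Plet1, Clu, Adam8 and Nfatc2, from -5.19 to -3.05. Lama3, Krt6a, Plet1 and Clu are genes of matrix contact, stress keratins and injured or fetal-like epithelium. Prn and Prnd overlap in the genome, so they are uncertain as separate results.

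**Figure D2:**
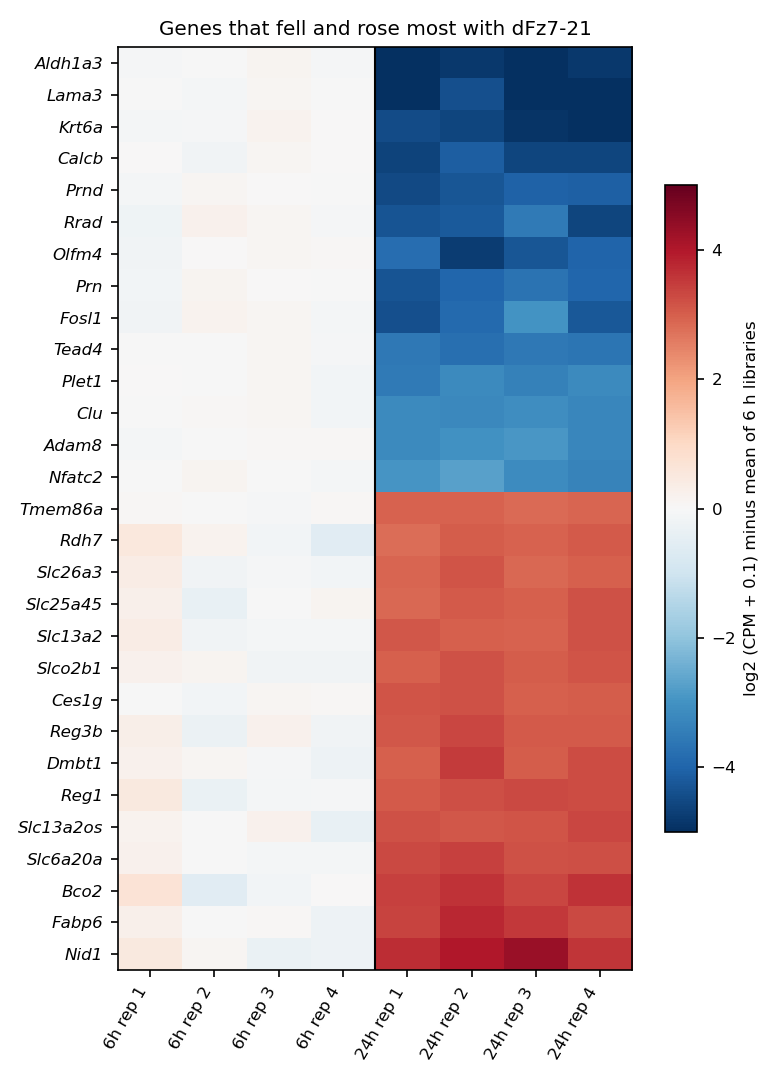
Rows are the genes just named, columns the 8 dFz7-21 libraries, and colour is log2(CPM + 0.1) minus the mean of the 4 libraries at 6 h. All 4 libraries at 24 h stand on the same side for every gene, replicate 3 included, because the naming rule admitted only genes without overlap between the times.

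Aldh1a3 (chr7:66390892-66427477 on GRCm38), an enzyme that makes retinoic acid, fell most. It measured 37.6, 38.4, 43.8 and 37.9 CPM at 6 h and 0.916, 1.31, 0.810 and 1.29 CPM at 24 h. The groups lie far apart, with a log2 fold change of -5.19 ± 0.15 (adjusted p = 2.33e-18). It fell with DMSO as well, by 3.49, and the fall under dFz7-21 was the larger (difference -1.69 ± 0.22, adjusted p = 8.09e-06). Calcb, a peptide of enteric neurons and enteroendocrine cells, went from 22.6 ± 1.69 CPM (SD, n = 4) to 0.930 ± 0.193 CPM (SD, n = 4). Its change over time with DMSO was -4.71, and the difference between the treatments was 0.11 ± 0.33 (95% interval -0.57 to 0.79).

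Stem cell genes moved down under dFz7-21 while many of them moved up in the other treatments. Of 36 tested genes of an Lgr5 stem cell list, 22 fell and 10 rose. Their median log2 fold change was -0.54, against -0.003 over all genes, and for the same genes it was 0.33 with DMSO and 0.24 with Fz7-21S. The time change was below that in DMSO for 24 of the 36 (5.78% of all genes) and below that in Fz7-21S for 24 (5.1% of all genes), and above it for 1 in each case. In bulk RNA, fewer cells of a type and less RNA per cell cannot be told apart.

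Olfm4 (chr14:80000302-80023141), a secreted glycoprotein of crypt-base stem cells, measured 1091, 1224, 1305 and 1257 CPM at 6 h. At 24 h it measured 87.2, 45.1, 63.1 and 76.3 CPM. Every library at 24 h was below every library at 6 h, with a log2 fold change of -4.17 ± 0.15, a 17.96-fold fall (adjusted p = 6.31e-17). Over the same hours its mean went from 1502 ± 75.8 to 1367 ± 227 CPM (SD, n = 4) with DMSO and from 1387 ± 52.96 to 1275 ± 85.03 CPM (SD, n = 4) with Fz7-21S. The difference in time change was -4.03 ± 0.19 from DMSO and -4.05 ± 0.19 from Fz7-21S. The mean with dFz7-21 was 1219 ± 91.8 CPM at 6 h and 67.9 ± 18.1 CPM at 24 h (SD, n = 4).

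Lgr5 (chr10:115450314-115587780), the receptor for R-spondins that defines these stem cells, had a different course. It measured 10.3, 11.4, 10.1 and 10.99 CPM at 6 h, where the means with DMSO and Fz7-21S were 44.4 ± 4.84 and 38.2 ± 4.10 CPM (SD, n = 4). By 24 h it measured 4.77, 2.003, 4.41 and 4.11 CPM with dFz7-21, with no overlap with 6 h. The log2 fold change was -1.49 ± 0.21 (adjusted p = 1.88e-06), while with DMSO and with Fz7-21S Lgr5 rose by 1.13 and 1.07. The difference in time change came to -2.61 ± 0.26 and -2.56 ± 0.27.

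The same reversal was called for other genes. Over all tested genes, 71 (0.46%) fell under dFz7-21 while rising in both other treatments, and the stem cell list held 6 of them: Slc14a1, Lgr5, Msi1, Cbs, Ephb3 and Soat1, named here after their values were seen. The opposite reversal was called for 16 genes (0.104%), none of the list. Msi1, an RNA-binding protein of progenitors, measured 18.4, 18.6, 15.3 and 19.3 CPM at 6 h and 11.6, 6.49, 5.91 and 7.16 CPM at 24 h, a log2 fold change of -1.21 ± 0.13 against 0.66 with DMSO. Cbs, an enzyme of transsulfuration, fell by 0.55 on the log2 scale where it rose by 1.58 with DMSO and 1.75 with Fz7-21S. Ephb3, a receptor that positions cells in the crypt, fell by 0.53 against rises of 0.45 and 0.44. Outside that list, Neurog3, Bex1 and Tead2 also belong to the 71 genes.

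Smoc2 rose under dFz7-21, by less than in the other treatments. This gene, a matricellular protein of crypt-base cells, measured 66.2, 69.1, 67.0 and 72.7 CPM at 6 h and 148, 116, 137 and 141 CPM at 24 h. Its groups did not overlap, and its log2 fold change of 0.98 ± 0.06 compares with 1.88 with DMSO and 1.99 with Fz7-21S. The difference was -0.91 ± 0.09 and -1.01 ± 0.09. Pcdh8 likewise rose (1.39 ± 0.33), with 2.07 and 2.32 in the others, but there the differences did not pass the test. Ascl2, the transcription factor that holds the stem cell state, measured 11.2, 15.4, 11.8 and 16.2 CPM at 6 h and 14.0, 6.71, 9.19 and 11.4 CPM at 24 h. The times overlapped, and its log2 fold change of -0.41 ± 0.18 was not called (adjusted p = 0.054). It was called without replicate 1 at 24 h (-0.57), without replicate 1 (-0.48) or 3 (-0.46) at 6 h and with DESeq2 (-0.40). Its mean at 6 h was 13.7 ± 2.51 CPM with dFz7-21 and 32.4 ± 2.64 CPM with DMSO (SD, n = 4), a difference not tested here.

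**Figure D3:**
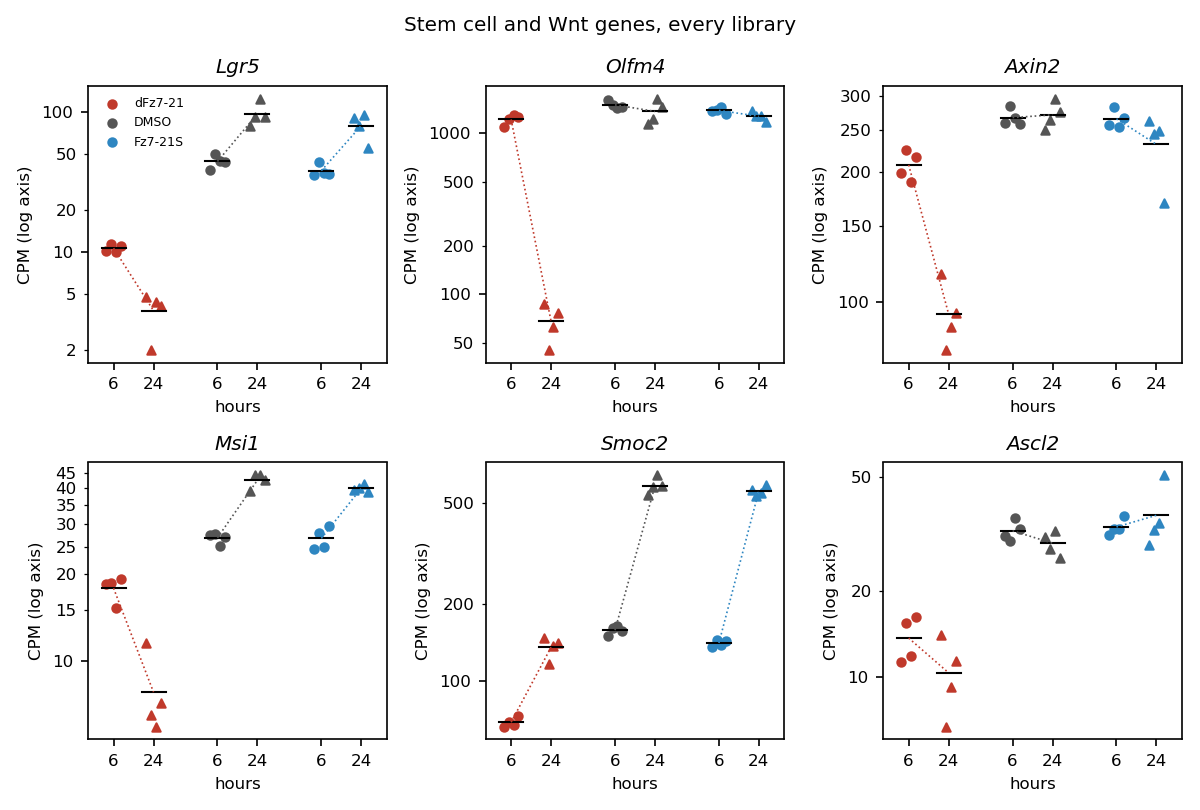
Each symbol is 1 library, with CPM on a log axis against hours of treatment, circles at 6 h, triangles at 24 h and black bars at the means. Olfm4, Axin2 and Msi1 drop with dFz7-21, Lgr5 drops with dFz7-21 and rises with the others, and the 2 times of Ascl2 overlap.

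Direct targets of Wnt signalling fell together with dFz7-21. Of 28 tested genes of a Wnt target list, 21 fell, 1 rose (Cdx1, 0.32; without replicate 2 at 24 h, 2 rose) and the median was -0.66, against -0.19 with DMSO and -0.20 with Fz7-21S. Of all genes 30.1% fell and 29.8% rose. The time change was below that in DMSO for 16 (5.78% of all genes) and below that in Fz7-21S for 14 (5.1% of all genes). The strongest calls were those of Cd44, Id2, Myc and Apcdd1, at -2.57, -1.64, -0.96 and -2.35. These fell in the other treatments also, by 1.40, 0.65, 0.61 and 0.64 with DMSO, and for each the fall with dFz7-21 was the larger by the test of the difference.

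Axin2 (chr11:108917828-108950783), the scaffold of the beta-catenin destruction complex and a standard readout of the pathway, measured 199, 225, 190 and 217 CPM at 6 h. It measured 116, 77.6, 87.7 and 94.3 CPM at 24 h. No library overlapped, and the log2 fold change was -1.15 ± 0.11 (adjusted p = 3.33e-09) against 0.02 with DMSO and -0.20 with Fz7-21S. The feedback ligases went the same way: Rnf43 fell by 1.01 ± 0.06 and Znrf3 by 0.54 ± 0.13, though for Znrf3 the difference from DMSO did not pass the test (-0.47 ± 0.17, adjusted p = 0.078). Nkd1, an inhibitor in the same feedback, fell by 1.61 ± 0.26 from 3.64 ± 0.246 CPM (SD, n = 4). Its difference from DMSO, -1.22 ± 0.35, lost its call without replicate 3 of DMSO at 24 h, without replicate 2 or 3 of dFz7-21 at 24 h, and without the 3 libraries with mesenchymal transcripts, where it was -0.91.

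Sp5, a zinc finger repressor induced by Wnt, fell by 0.65 ± 0.16 on the log2 scale. It measured 4.21, 5.36, 3.91 and 4.78 CPM at 6 h and 2.80, 2.44, 2.55 and 3.84 CPM at 24 h, against a mean of 12.7 ± 0.747 CPM (SD, n = 4) with DMSO at 6 h. Tnfrsf19, a receptor of crypt progenitors, fell by 0.55 ± 0.14. Promoter sequence shows where the letters of a TCF and LEF motif stand in these genes. Of 27 RefSeq windows of 250 bases before the starts of 19 listed Wnt targets, 3 held CTTTGAT on either strand (11.1%), in Mmp7, Sp5 and Tnfrsf19, and 3.21% of all 32851 windows held it. The capitals below mark the motif or its reverse complement in 60 bases of GRCm38.p6, read 5′ to 3′ on the strand of the gene, and a match is a description of letters, not a site. The Sp5 stretch is chr2:70474792-70474851 on the plus strand and the Tnfrsf19 stretch chr14:61038157-61038216 on the minus strand, before one of its starts.
Sp5: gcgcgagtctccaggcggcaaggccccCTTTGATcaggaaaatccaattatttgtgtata
Tnfrsf19: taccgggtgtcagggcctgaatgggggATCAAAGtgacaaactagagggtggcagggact

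The receptors themselves changed unevenly. Of 25 tested genes for Frizzled proteins, their co-receptors and ligands, 12 fell and 3 rose, with a median of -0.19. Fzd7, which encodes the blocked receptor, measured 46.6, 49.1, 49.8 and 50.1 CPM at 6 h and 27.5, 25.4, 40.6 and 27.3 CPM at 24 h. The highest of the later values is replicate 3, the library with mesenchymal transcripts. All 4 nevertheless lie below the 6 h values, with a log2 fold change of -0.69 ± 0.12 that became -0.85 without replicate 3. With DMSO it was 0.13 and with Fz7-21S -0.12. The difference from DMSO was -0.82 ± 0.17. That from Fz7-21S, -0.57 ± 0.17, passed the test narrowly (adjusted p = 0.028) and lost its call when any of 11 single libraries was left out. Fzd3 fell by 1.66 ± 0.18, while Fzd5, the main Frizzled of the adult intestinal epithelium, rose from 172 ± 6.83 to 295 ± 13.3 CPM (SD, n = 4), a log2 fold change of 0.78 ± 0.09. The co-receptor-like kinases Ryk and Ror2 fell by 0.43 and 0.72. The rises number 1 without replicate 2 at 6 h, and that of Fzd2 was gone without replicate 3 at 24 h (-0.06).

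Absorptive genes rose over time, further with dFz7-21 than with the other treatments. Of 29 tested brush border and villus enterocyte genes, 24 rose and 3 fell, with a median of 1.41 against 0.76 with DMSO and 0.71 with Fz7-21S. The time change exceeded that in DMSO for 23 of them (7.37% of all genes) and that in Fz7-21S for 22 (5.83% of all genes). Called most strongly were the fructose transporter Slc2a5 (2.44), the peptide transporter Slc15a1 (2.34) and the peptidases Enpep (2.15) and Mep1b (2.04). Ezr, Eps8 and Krt20 fell. Of the 29, 21 were called higher in all 3 treatments, as were 3091 of all 15429 genes. Vil1, a structural protein of microvilli, kept between 1207 and 1365 CPM in all 8 libraries.

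Alpi (chr1:87098002-87101606), intestinal alkaline phosphatase, measured 50.2, 45.6, 48.1 and 43.9 CPM at 6 h. At 24 h it measured 129, 132, 127 and 138 CPM. The times were well apart, with a log2 fold change of 1.49 ± 0.10 (adjusted p = 8.90e-12), and with DMSO the change was 0.36. Akp3, another alkaline phosphatase of the intestine, rose from 2.96 ± 0.461 to 8.96 ± 1.197 CPM (SD, n = 4), whereas its log2 fold change with DMSO was -0.47. The difference was 2.07 ± 0.38 for Akp3 and 1.13 ± 0.15 for Alpi.

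Genes of fat and bile acid handling behaved likewise. Of 27 tested genes, 22 rose and none fell, with a median of 1.29 against 0.47 and 0.48 in DMSO and Fz7-21S. The time change exceeded that in DMSO for 20 (7.37% of all genes) and that in Fz7-21S for 18 (5.83% of all genes). The desaturase Scd1, the triglyceride-forming enzyme Dgat1, the sterol exporter Abcg5 and the sterol importer Npc1l1 rose by 2.81, 1.79, 1.70 and 1.89 on the log2 scale. Apoa4, an apolipoprotein of chylomicrons, was not called, at -0.05.

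Bile acid genes of the distal small intestine were among those that rose. Fabp6 (chr11:43596040-43601562), the ileal bile acid binding protein, measured 12.5, 10.3, 11.04 and 8.77 CPM at 6 h. It measured 111, 146, 122 and 106 CPM at 24 h. All later values exceed all earlier ones, and the log2 fold change was 3.51 ± 0.21, an 11.4-fold rise (adjusted p = 6.82e-13), against 0.60 with DMSO and 1.15 with Fz7-21S. The basolateral bile acid exporter subunits Slc51a and Slc51b rose by 1.99 ± 0.11 and 1.43 ± 0.16, with 0.47 and 0.06 in DMSO. Slc10a2, the apical importer, rose by 0.38, and Nr1h4, the bile acid receptor, by 1.10.

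Further metabolic programmes of the villus rose alongside. Of 25 tested genes of fatty acid oxidation and PPAR targets, 24 rose and 1 fell, with a median of 0.74 against 0.39 and 0.46. The time change exceeded that in DMSO for 14 (7.37% of all genes) and that in Fz7-21S for 15 (5.83% of all genes). Ucp2, Acadl and Acaa2 were among those with the smallest p, at 0.89, 0.95 and 0.91. Ppara, the receptor that drives many of them, rose by 1.74. Xenobiotic metabolism gave 26 rises and 4 falls among 32 tested genes, with a median of 1.04 against 0.43 and 0.54. Here the time change exceeded that in DMSO for 22 (7.37% of all genes) and that in Fz7-21S for 18 (5.83% of all genes). The carboxylesterase Ces1g went from 9.42, 8.59, 10.1 and 9.86 CPM to 84.5, 86.6, 75.1 and 78.3 CPM, far outside its earlier range, with a log2 fold change of 3.09 ± 0.08. Ugt1a1, Ces1f and Cyp2j6 rose by 1.46, 1.76 and 1.51. The 4 falls were Ahr, the aryl hydrocarbon receptor, and its targets Ahrr, Cyp1a1 and Tiparp. The call of Ahr (-0.36) was lost without replicate 3 at 24 h (-0.27). Cyp1a1 went from 290 ± 38.0 to 74.3 ± 9.23 CPM (SD, n = 4), a change of -1.97, with -2.22 in DMSO (difference 0.25 ± 0.14, adjusted p = 0.26).

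Retinoid genes went both ways. Of 16 tested, 8 rose and 3 fell. The retinol and carotenoid enzymes Dhrs3, Bco1 and Rdh7 rose by 2.68, 1.80 and 2.94, while the retinol dehydrogenases Rdh10 and Dhrs9 fell by 1.73 and 0.57. Of the enzymes of the last step to retinoic acid, Aldh1a3 fell by 5.19 and Aldh1a1 rose by 1.53. With DMSO the changes of Dhrs3, Bco1 and Rdh7 were 1.76, 1.12 and 1.86, and those of Aldh1a3 and Rdh10 -3.49 and -1.08.

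Reg lectins, antibacterial proteins of enterocytes and Paneth cells, rose with dFz7-21. Of 5 tested, 4 rose and Reg4, a secretory cell member, fell by 0.57. For all 4 the time change exceeded that in DMSO (7.37% of all genes) and that in Fz7-21S (5.83% of all genes). Reg3b measured 29.0, 19.0, 27.1 and 20.6 CPM at 6 h and 204, 241, 197 and 200 CPM at 24 h, with a log2 fold change of 3.14 ± 0.20 against 0.82 and 1.23. Reg1 rose by 3.26 ± 0.22, from 1.44 ± 0.401 to 13.8 ± 0.963 CPM (SD, n = 4). Reg3a and Reg3g rose by 1.42 ± 0.13 and 0.83 ± 0.12, where their changes with DMSO were -0.24 and -0.36.

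**Figure D4:**
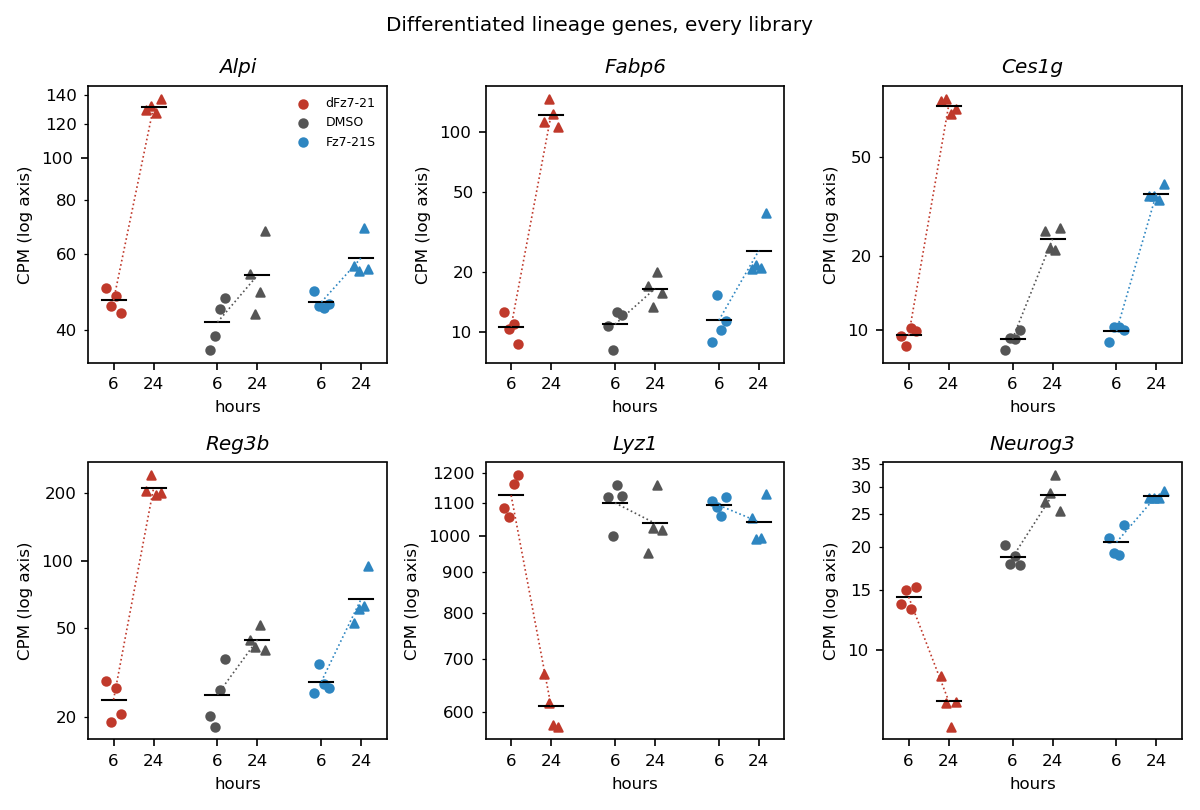
CPM of each library on a log axis against hours of treatment, circles at 6 h, triangles at 24 h and black bars at the means. With dFz7-21 the 24 h libraries are highest for Alpi, Fabp6, Ces1g and Reg3b and lowest for Lyz1 and Neurog3. At 6 h the libraries of the 3 treatments overlap for Alpi, Fabp6, Reg3b and Lyz1.

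Secretory lineages were examined one by one. Of 23 tested Paneth cell genes 17 fell and 2 rose (1 without replicate 1 or 3 at 24 h, or without replicate 2 or 3 at 6 h), with a median of -0.57 against -0.07 with DMSO and 0.13 with Fz7-21S. The time change was below that in DMSO for 10 (5.78% of all genes) and below that in Fz7-21S for 15 (5.1% of all genes). Lyz1 (chr10:117287795-117292868), the Paneth cell lysozyme, measured 1085, 1058, 1163 and 1193 CPM at 6 h and 671, 616, 579 and 576 CPM at 24 h. That is a log2 fold change of -0.88 ± 0.06 with no overlap, against -0.09 and -0.07 in the other treatments. The protease Mmp7, colipase Clps and the phospholipase Pla2g2a fell by 1.05, 1.49 and 1.01. For Mmp7 the difference from Fz7-21S passed the test (-0.51 ± 0.11) and that from DMSO did not (-0.27 ± 0.11). Defensin genes of the Defa family have near-identical copies, so their single values are uncertain.

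Goblet cell genes went both ways, with 9 of 23 tested higher, 8 lower and a median of 0.02. Of all genes 29.8% were higher and 30.1% lower. The time change exceeded that in DMSO for 9 of the 23 (7.37% of all genes) and was below it for 3 (5.78% of all genes). Against Fz7-21S it was above for 4 (5.83% of all genes) and below for 4 (5.1% of all genes). The channel regulator Clca1 rose by 2.38 ± 0.10 and the secretory factor Creb3l4 by 1.22, while the kallikrein Klk1 and the granule protein Sytl2 fell by 1.46 and 1.40. Muc2, the main mucin, measured 156, 165, 173 and 156 CPM at 6 h and 157, 170, 126 and 128 CPM at 24 h. The times overlapped and it was not called (-0.16 ± 0.10, adjusted p = 0.159), whereas with DMSO it fell by 0.88, a difference of 0.72 ± 0.14 (adjusted p = 0.00102).

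Neurog3, the factor that commits cells to the enteroendocrine lineage, measured 13.7, 15.02, 13.2 and 15.2 CPM at 6 h and 8.39, 7.01, 5.99 and 7.07 CPM at 24 h. It fell by 1.01 ± 0.10 with no overlap, where it rose by 0.60 with DMSO and 0.45 with Fz7-21S. Insm1, which acts after it, fell by 0.82 ± 0.10 (difference from DMSO -1.02 ± 0.14). Of 20 tested transcription factors of the lineage, 6 fell, a share near the 30.1% of all genes that fell, and 3 rose (5 without replicate 1 at 6 h). Of 23 hormone and granule genes 14 fell (12 without replicate 3 at 24 h) and none rose. Their median was -0.52 here, -0.61 with DMSO and -0.34 with Fz7-21S. For 3 of the 23 the time change differed from that in DMSO, a share near the 13.2% of all genes. Vgf, Tph1, Scg2 and Vwa5b2 fell by 2.86, 0.98, 0.95 and 0.98. Chga, a granule protein, fell by 0.28 ± 0.11 (adjusted p = 0.0325), a call lost without any of 5 single libraries.

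Tuft cell genes gave 8 falls and 3 rises among 25 tested, and the time change differed from that in DMSO for 2 of them. The share of falls is near the 30.1% of all genes that fell, and the share of differences is below the 13.2% of all genes. Hpgds, Plcg2 and Kctd12 fell by 1.99, 0.63 and 0.69, and Ptgs1 rose by 1.73. Dclk1, the usual marker, stayed between 8.49 and 10.6 CPM in all 8 libraries and was not called (-0.08 ± 0.17). Of 7 tested genes linked to microfold cells, 2 fell (Marcksl1, -1.63, and Anxa5, -1.42) and 1 rose (2 without replicate 4 at 6 h). The shares of all genes were 30.1% for falls and 29.8% for rises.

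Several programmes were called in the same direction in every treatment, cell division among them. Of 30 tested G2 and mitosis genes 28 rose and none fell with dFz7-21, with a median of 0.65 against 0.80 with DMSO and 0.77 with Fz7-21S, and the 28 were also called higher in both other treatments. Mki67, the proliferation antigen, measured 207, 207, 193 and 205 CPM at 6 h and 378, 360, 316 and 348 CPM at 24 h. Its log2 fold change was 0.79 ± 0.12 with no overlap, and the difference from DMSO, -0.22 ± 0.17, did not pass the test (adjusted p = 0.483). The cyclin Ccnb2, the kinase Aurkb and the motor Kif20a rose by 1.40, 0.92 and 0.69. Nusap1, a spindle protein, rose by 0.95, less than with DMSO (1.32; difference -0.36 ± 0.08). S-phase genes were mixed, with 21 of 40 higher and 9 lower, led by the thymidine kinase Tk1 (1.81), Lig1 (0.74) and Rrm2 (0.80). Of 14 tested histone genes 7 rose and 3 fell, with H1f0, H2az2, H2bc21 and H1f2 at 1.06, 1.62, 1.81 and 0.91.

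Ribosome biogenesis fell nearly as a block. Of 36 tested genes 34 fell and none rose, with a median of -0.69 against -0.64 in each control, and 32 were called lower in all 3 treatments. Nop56, a core protein of small nucleolar particles, measured 180, 174, 181 and 189 CPM at 6 h and 93.1, 83.4, 91.3 and 94.6 CPM at 24 h. It fell by 0.999 ± 0.05, against -0.92 with DMSO. Nop58, Wdr43 and the pseudouridine synthase Dkc1 fell by 0.96, 0.86 and 0.91. The time change differed from that in DMSO for 1 of the 36, against 13.2% of all genes.

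Genes of growth factor response and epithelial injury were highest at 6 h. Immediate early genes gave 19 falls and 4 rises among 30 tested, with Fos at -2.03 ± 0.08, Egr1 at -1.31 ± 0.08 and Fosl1 at -3.78 ± 0.18. Fosl1 measured 57.8, 73.0, 69.8 and 61.8 CPM at 6 h and 2.99, 4.27, 8.22 and 3.37 CPM at 24 h, with its highest late value again in replicate 3. The EGF family with EphB receptors gave 19 falls and 6 rises among 27, and 17 were called lower in all 3 treatments (18.4% of all genes). The EGF receptor ligands Btc and Hbegf fell by 2.81 and 1.86, and the receptors Epha2 and Egfr by 2.22 and 1.99. For Btc, Epha2 and Egfr the fall exceeded that with DMSO by 0.62 ± 0.12, 0.74 ± 0.09 and 0.79 ± 0.14. Egfr already differed in mean level at 6 h, with 107.9 CPM under dFz7-21 and 76.9 CPM with DMSO. At 24 h its means were 27.1 and 33.3 CPM.

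Of 25 tested fetal and injury genes 17 fell and 2 rose, with a median of -1.34 against -1.43 with DMSO and -1.09 with Fz7-21S. One of the rises, Basp1, came from replicate 3 alone, at 24.3 CPM there and 0.607 CPM or less in the other 7 libraries, and without it 1 rise was left. Clu, which marks injury-induced stem cells, measured 109, 113, 118 and 99.8 CPM at 6 h and 11.8, 11.5, 12.5 and 11.4 CPM at 24 h. Its fall of 3.22 ± 0.12 was larger than with DMSO (difference -1.67 ± 0.16). Emp1 and Krt18 fell by 2.14 and 2.04. Junction genes gave 19 falls (15 without replicate 3 at 24 h) and 4 rises among 25. Cldn4 changed by -2.45, and Cldn15, the claudin of the small intestinal villus, and Tjp3 by 1.88 and 0.88. Of these 25, 13 were called lower in all 3 treatments (18.4% of all genes). Of 24 tested BMP and TGF-beta targets 17 fell and 2 rose (1 without any single 6 h library), with Id2, Tbx3, Acvr1 and Smurf1 at -1.64, -0.87, -1.02 and -1.05. Among the 24, 13 were called lower in all 3 treatments (18.4% of all genes).

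Immune response genes gave more falls than rises. Of 31 tested interferon-stimulated genes 15 fell (18 without replicate 3 at 24 h). The rises numbered 2 (1 without replicate 3 at 24 h or replicate 4 at 6 h). Their list had a median of -0.83, less negative than with DMSO (-1.60) and Fz7-21S (-1.13). Rsad2, an antiviral enzyme, measured 14.8, 12.8, 12.3 and 10.7 CPM at 6 h and 0.916, 1.13, 1.26 and 0.786 CPM at 24 h, a fall of 3.62 ± 0.33. Irf9, Ddx58 and Oasl1 fell by 1.07, 0.93 and 0.85. For Oasl1 the fall was smaller than with DMSO (difference 0.52 ± 0.14), while for Irf9 it was larger (-0.46 ± 0.14). Of 19 antigen presentation genes 12 fell and 3 rose, and 11 were called lower in all 3 treatments (18.4% of all genes). Cd74, the invariant chain of class II, went from 41.4 ± 3.92 to 6.37 ± 0.870 CPM (SD, n = 4), and Psmb8 fell by 1.76. The non-classical class I genes H2-T3 and H2-Q2 rose by 1.85 and 1.44, more than with DMSO (differences 1.09 ± 0.11 and 0.78 ± 0.14). Among 25 NF-kB targets and chemokines 14 fell, among them Nfkb2 and Bcl3 at -1.26 and -1.73, and 5 rose, among them Pigr, the transporter of secretory IgA, at 1.69 and the chemokine Ccl25 at 1.97. Lower in all 3 treatments were 13 of these 25 (18.4% of all genes).

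**Figure D5:**
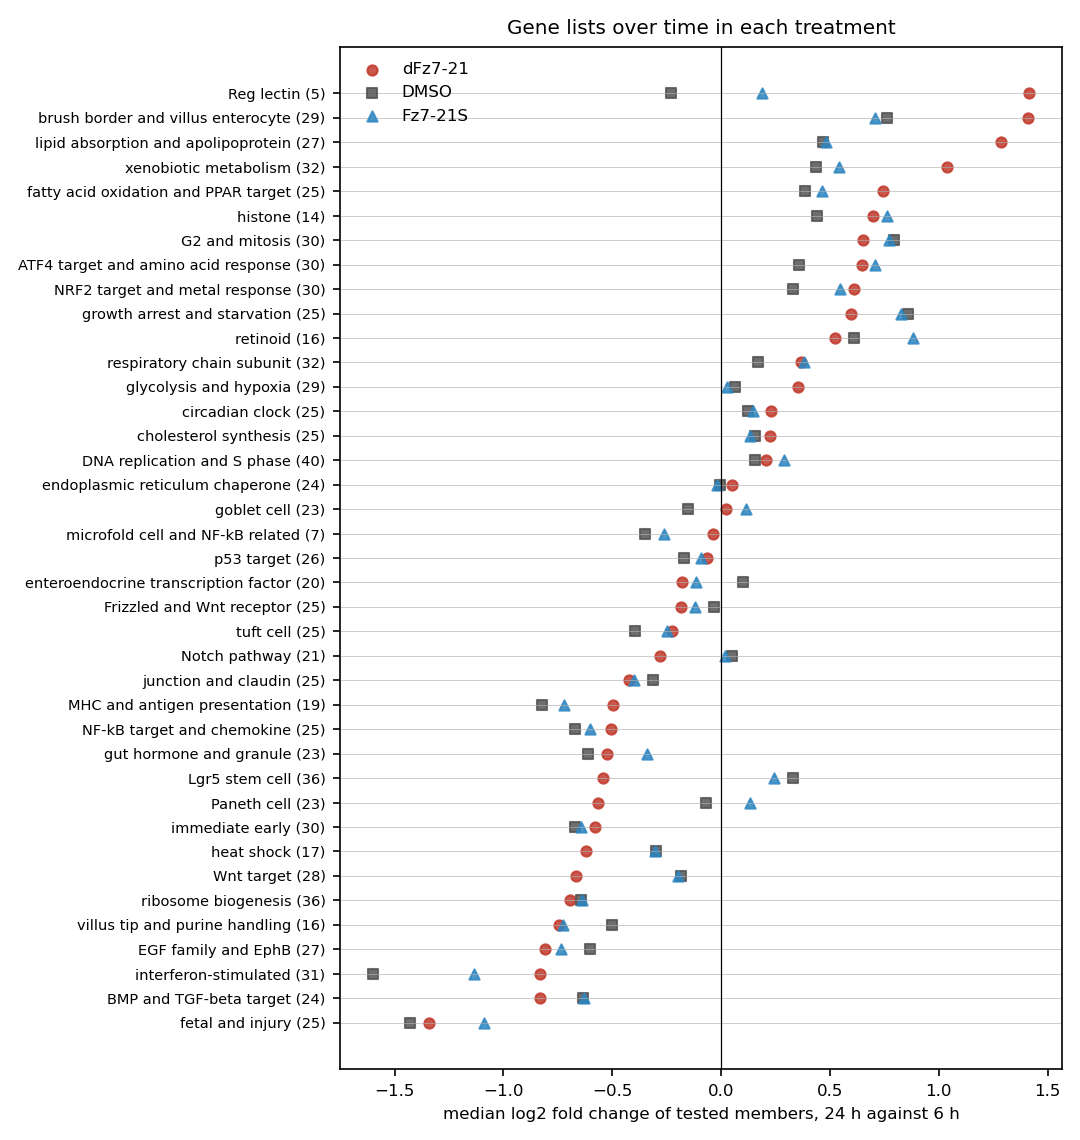
Each line is a gene list with its number of tested members, and the symbols give the median log2 fold change from 6 to 24 h with dFz7-21 (red circles), DMSO (grey squares) and Fz7-21S (blue triangles) for 39 lists. The symbols lie together for mitosis (0.65, 0.80 and 0.77) and ribosome biogenesis (-0.69, -0.64 and -0.64), and apart for the stem cell list (-0.54, 0.33 and 0.24), the Paneth list (-0.57, -0.07 and 0.13) and the brush border list (1.41, 0.76 and 0.71).

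Genes of growth arrest and nutrient shortage rose in all treatments, with 18 of 25 higher and 3 lower and a median of 0.60 against 0.86 and 0.83. Pdcd4, an inhibitor of translation, measured 24.0, 26.6, 25.8 and 25.5 CPM at 6 h and 107, 115, 100 and 112 CPM at 24 h. It rose by 2.09 ± 0.07, against 2.12 with DMSO. Sesn1, Pink1 and Foxo4 rose by 1.27, 1.23 and 0.83. The p53 targets went both ways, with 10 of 26 higher and 11 lower: Sesn1 and Btg2 rose, by 1.27 and 0.49, and Aen and Cdkn1a fell by 0.94 and 0.91.

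The ATF4 programme, which raises amino acid synthesis and transport when amino acids are short, rose. Of 30 tested genes 24 rose and 1 fell (2 without replicate 3 at 24 h), with a median of 0.65, against 0.36 with DMSO and 0.71 with Fz7-21S. The time change exceeded that in DMSO for 15 (7.37% of all genes) and that in Fz7-21S for 6 (5.83% of all genes). Chac1, a glutathione-degrading enzyme induced by ATF4, measured 11.6, 11.7, 11.8 and 11.1 CPM at 6 h and 64.7, 66.2, 62.2 and 61.9 CPM at 24 h, a rise of 2.46 ± 0.07 with 2.13 and 2.36 in the others. The cystathionine lyase Cth, the serine enzyme Psat1 and the tRNA synthetase Mars1 rose by 1.84, 1.12 and 0.96.

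Promoter letters of an ATF4 composite motif are shown because these genes rose together. TGATGNAA, on either strand, stood in 8 of 30 windows of 250 bases before starts of the listed genes (26.7%) and in 3.45% of all windows. The genes were Aars, Asns, Chac1, Gars, Nupr1, Pycr1, Slc7a11 and Vldlr. Those printed have 60 bases of GRCm38.p6 on the gene's strand with the motif or its reverse complement in capitals. They are chr2:119351023-119351082 (plus), chr6:7693210-7693269 (minus), chr3:50443646-50443705 (minus) and chr8:111033704-111033763 (plus), the last pair before one of several starts.
Chac1: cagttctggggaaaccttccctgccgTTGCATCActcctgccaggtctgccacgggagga
Asns: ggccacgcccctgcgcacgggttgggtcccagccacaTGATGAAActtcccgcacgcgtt
Slc7a11: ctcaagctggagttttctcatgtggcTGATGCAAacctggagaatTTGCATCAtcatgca
Aars: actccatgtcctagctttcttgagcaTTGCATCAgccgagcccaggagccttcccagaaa
Asns, which makes asparagine, rose by 0.81 ± 0.05 (0.42 with DMSO, 0.78 with Fz7-21S). The cystine importer Slc7a11, with the motif on both strands of its stretch, rose by 0.94 ± 0.16 (0.97 and 1.34). The alanyl-tRNA synthetase Aars rose by 0.66 ± 0.04 (0.36 and 0.39).

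Other stress lists were mixed in direction. NRF2 targets rose for 23 of 30 tested genes and fell for 0 (1 without replicate 3 at 24 h), with a median of 0.61 against 0.33 and 0.55. The glutathione transferases Gsta3, Gstm3 and Gstm1 rose by 1.65, 2.49 and 2.002 and the synthesis subunit Gclm by 0.79. The antioxidant motif TGACNNNGC stood in 20.6% of the list's windows and in 10.2% of all windows. Heat shock genes fell, 12 of 17 against 1 that rose (2 without replicate 2 at 24 h), with Hspa1b at -1.55 and the chaperones Chordc1, Hsph1 and Dnaja1 at -0.71, -0.63 and -0.68. Their median was -0.62 against -0.30 with DMSO and -0.30 with Fz7-21S, and 12 were called lower in all 3 treatments (18.4% of all genes). Chaperones of the endoplasmic reticulum gave 10 rises and 3 falls among 24, led by Herpud1 at 0.94, with Syvn1, Edem1 and Pdia4 at 0.38, 0.35 and 0.31.

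Subunits of the respiratory chain rose for 26 of 32 and fell for none, by small amounts (median 0.37; Sdha, Atp5c1 and Ndufv1 at 0.36, 0.43 and 0.55). With DMSO 13 rose and 1 fell (median 0.17), and with Fz7-21S 28 rose (median 0.38). Glycolysis and hypoxia genes gave 16 rises and 6 falls among 29: the glucose importer Slc2a1, the hexokinase Hk2 and the regulator Pfkfb3 fell by 0.96, 1.31 and 1.86, and the phosphofructokinase Pfkp rose by 0.96. Cholesterol synthesis gave 14 rises and 5 falls among 25, with Dhcr7, Tm7sf2, Mvd and Insig1 at 1.02, 1.07, 0.68 and 0.70. Its falls numbered 2 without replicate 3 or 4 at 24 h or replicate 1 at 6 h, and 3 without replicate 1 at 24 h or replicate 3 at 6 h. Notch pathway genes gave 9 falls and 3 rises among 21, with Notch2 and Jag2 at -1.15 and -0.93. The ligand Dll1 and the modulator Lfng, both among the 71 genes that reversed, fell by 0.22 and 0.28 and rose by 0.56 and 0.60 with DMSO. Without replicate 3 at 24 h their changes were -0.15 and -0.23 and the calls were lost. Villus tip and purine genes gave 8 falls and 5 rises among 16, with Fos, Egfr, Klf6 and Ifrd1 falling and Xdh and Enpp3 rising by 0.97 and 1.33.

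Clock genes were compared because the times of sampling differ by hours. Of 25 tested 11 rose and 6 fell. Dbp, an output factor of the clock, measured 3.07, 3.90, 2.40 and 3.95 CPM at 6 h and 13.1, 13.9, 12.7 and 14.6 CPM at 24 h. It rose by 2.02 ± 0.13, against 1.71 with DMSO and 1.87 with Fz7-21S. Nr1d1, Tef and Arntl rose by 0.77, 0.91 and 0.46, Csnk1e, Bhlhe40 and Per2 fell by 0.94, 0.75 and 0.44, and Clock was not called (-0.16 ± 0.14). The time change differed from that in DMSO for 2 of the 25, a share below the 13.2% of all genes. It was higher for 1 (Usp2, 0.83 ± 0.18) and lower for 1 (Csnk1e, -0.49 ± 0.09). CACGTG, the E-box bound by clock activators, stood in 7 of 29 windows of the list (24.1%) and in 6.02% of all windows. Stretches of Tef (chr15:81802519-81802578, plus) and Ciart (chr3:95882312-95882371, minus) are shown with the motif in capitals, since both rose (Ciart by 0.97 ± 0.19).
Tef: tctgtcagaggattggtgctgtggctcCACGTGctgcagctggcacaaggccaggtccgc
Ciart: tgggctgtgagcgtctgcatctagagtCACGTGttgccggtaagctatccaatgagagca

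Most mesenchymal calls rested on the 24 h library of replicate 3. All 10 tested mesenchymal genes were called higher at 24 h, with a median log2 fold change of 5.88, and without replicate 3 the call was kept for 1 of them. That gene, Pdgfrb, measured 2.10, 1.10, 1.51 and 1.36 CPM at 6 h and 6.17, 9.02, 18.02 and 5.64 CPM at 24 h. Its log2 fold change was 2.68 ± 0.38 with all libraries and 2.22 without replicate 3, against 0.77 with DMSO and 1.60 with Fz7-21S. Nid1, a basement membrane protein, likewise kept its rise, at 3.79 without replicate 3, from 5.74, 4.30, 3.25 and 3.39 CPM to 53.03, 66.2, 82.6 and 50.0 CPM. Col1a1, Sparc and Col5a1 went from 9.47, 6.08 and 6.62 to 0.46, 0.16 and -0.69, none of them called. Of 4 tested immune markers 1 rose and 2 fell (1 fell without replicate 1 or 3 at 24 h or replicate 2 or 4 at 6 h), and their list summed to 7.34 to 8.66 CPM at 6 h and 10.8 to 11.8 CPM at 24 h. The integrin Itgam rose by 1.44 ± 0.21, and its 4 libraries at 24 h, replicate 3 included, lay between 8.97 and 9.40 CPM. Of 8 tested endothelial, glial and neural genes 1 rose and 2 fell (33.5 to 35.7 CPM, then 27.1 to 32.4 CPM). These falls numbered 1 without replicate 2 and 3 without replicate 3 at 24 h. Of 5 tested genes of exocrine pancreas and stomach 1 rose and 3 fell (22.3 to 24.2 CPM, then 15.2 to 17.7 CPM). Their part in the other results was not tested.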

How the data were processed

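Per the labels' protocols, polyadenylated RNA of 24 organoid samples was extracted with an RNeasy Micro kit. Each deposited count gives the uniquely aligned reads of a gene model, per the file headers, and the deposited RPKM is that count scaled by length and a size factor, per the file headers. The submitters' processing notes list GSNAP and GRCm38. Annotation, strand counting and filters: not given in the sources used here. RPKM values entered no test. Of 36528 gene IDs, 31049 took a symbol from the RefSeq table of GRCm38 and 77 from GENCODE's Entrez table; the other 5402, with 2.54% to 3.50% of a library's counts, stayed in the tests. Positions are whole RefSeq genes on GRCm38, counted from 1.

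Counts were tested with edgeR 4.0.16 in R 4.3.3 (TMM, robust quasi-likelihood fit of all 24 libraries in 6 groups, genes kept by filterByExpr). The 15429 genes tested were adjusted together by Benjamini-Hochberg. Levels are TMM-scaled CPM. On simulated counts for 15128 genes, 91% of 200 changed genes were recovered and 10 unchanged genes called. The simulated replicates had the same spread for every gene and no library that stood apart, and far fewer genes changed than were called here. These figures therefore check the code and do not give error rates for the data. Depth was 20.4 M to 33.1 M counts per library. Replicates differed by more than sampling noise (3.91 to 18.0 chi-square units per degree of freedom between dFz7-21 libraries). Replicate 4 of Fz7-21S at 24 h lay furthest from its group by this measure, at 74.9 to 96.1 units. It was part of the shared fit. Alternatives were size factors by DESeq2's method, no filter, a replicate block, a minimum fold of 1.2, fits of the compared groups alone, DESeq2 1.42.0 and each library left out. The comparison, the 43 gene lists and the tests were chosen with earlier results of these data known, and motifs after values were seen. Genes were named by rule: the 15 largest changes each way, a fixed set of markers, 6 each way for each interaction, and the 4 smallest p of each list; others are named after their values were seen. Some genes that meet the rule are not reported here.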

Additional observations from a re-analysis of the deposited data

Results flagged for a closer look

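A single library stood far from the other 3 of its group for 10 of the gene and group pairs checked. Chance alone flags about 1 in 20 groups, and 122 groups of 4 were checked. In the 24 h library of replicate 3 these were Vim at 257 CPM, Aebp1 at 59.96 CPM and Ifitm3 at 27.3 CPM, the library with mesenchymal transcripts. Replicate 2 at 24 h was high for Reg3b (241 CPM) and Calcb (1.22 CPM). At 6 h, replicate 1 was apart for Slc13a2 (8.25 CPM), Slc6a20a (7.81 CPM) and Arntl (30.2 CPM), and replicate 3 for Aldh1a3 (43.8 CPM) and Mki67 (192.7 CPM).

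The change from 6 to 24 h differed between dFz7-21 and DMSO for 2029 genes and between dFz7-21 and Fz7-21S for 1687, by the interaction test in edgeR. Against DMSO the named differences in log2 fold change were -4.03 for Olfm4, -2.61 for Lgr5, -2.09 for Cpm, -1.98 for Clca3b, -1.87 for Msi1 and -1.76 for Krt6a, and 2.07 for Akp3, 2.22 for Reg1, 2.32 for Reg3b, 2.91 for Fabp6, 3.96 for Aebp1 and 7.36 for Vim. Vim and Aebp1 were 0.38 and 0.27, and not called, without the 3 libraries with mesenchymal transcripts. Against Fz7-21S they were -4.05 for Olfm4, -2.56 for Lgr5, -1.95 for Ifitm3, -1.87 for Tead2, -1.79 for Msi1 and -1.79 for Bex1, and 1.39 for Slc51a, 1.54 for Slc13a2os, 1.89 for Reg1, 1.91 for Reg3b, 2.11 for Akp3 and 2.36 for Fabp6.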

How the results depend on the processing

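Leaving out each library in turn gave 8646 to 8870 genes called over time with dFz7-21, 1771 to 2073 for the difference from DMSO and 1348 to 2878 for the difference from Fz7-21S, the last without replicate 4 of Fz7-21S at 24 h. Requiring more than a 1.2-fold change left 6040, 799 and 575 genes. A fit of the compared groups alone gave 3418 genes for the difference from DMSO. The other settings stayed within 1.5 times: DESeq2's size factors in edgeR 9227, 2057 and 1695, no filter 9016, 1851 and 1333, DESeq2 9413, 2391 and 2078, and without the 3 libraries with mesenchymal transcripts 8796, 1618 and 1664. With the replicate number as a block the counts were 9196, 1947 and 1674. The labels do not say whether equal numbers pair samples. In their deviations from the group means, same-numbered libraries of the 2 times correlated between -0.099 and 0.006, and 0 of 4 matched their own number best. With 4 such pairs this cannot show that no cultures were shared. Among the genes named by rule, signs reversed only where libraries with mesenchymal transcripts were left out. Col5a1 was -0.69 without replicate 3 at 24 h, and Vim was -0.38 without it and -0.41 without the 3 libraries. With each other library left out they reached 7.03 and 3.96. Genes outside the rule, such as Fstl1, Acta2 and Fzd2, also turned negative without replicate 3 at 24 h. Over the alternatives, 4614 values of named genes kept their side of the threshold, 74 lost the call and 15 gained it, and the cause was not tested. Single genes below about 3 counts a library are limited by depth.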
